A study of Homo sapiens with 101 samples.

Results

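SW480 is a human colon adenocarcinoma cell line. The comparison described here set 12 arrays of SW480 cells that carried a control vector against 3 arrays of SW480 cells that had not been transduced, chosen by their titles. These are 15 of the 51 SW480 arrays of a series that also holds 50 SW620 arrays. The vector arrays were 6 of cells with an empty pLKO vector and 6 of cells with a non-target hairpin, a short hairpin RNA meant to match no human transcript, and both groups held replicates 1 to 6. The non-transduced arrays were replicates 1, 2 and 7. The wider study lowered genes of the RAS pathway with short hairpin RNAs in SW480 and SW620 cells, and these groups are its controls. The labels give neither the time after transduction, nor a selection step, nor whether the control cells came from 1 clone.

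Lentiviral vectors such as pLKO deliver an RNA genome that is copied into DNA and inserted into the chromosomes of the host cell. Cells can detect foreign RNA or DNA through sensors such as RIG-I and cGAS, which switch on interferon and interferon-stimulated genes, and they hold restriction factors and chromatin silencers that act on retroviruses. A hairpin also passes through the microRNA machinery of Drosha, exportin 5, Dicer and the Argonaute proteins. These groups of genes, and groups for stress, metabolism and cell state, were therefore followed.

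Non-transduced replicates 1 and 2 each have an empty vector and a non-target array with the same replicate number and label style, so the comparison was made within each of these replicates and averaged: 4 vector arrays against 2 non-transduced arrays. By their titles, vector arrays of replicates 3 to 6 have no non-transduced partner. They added to the estimate of the spread between arrays and not to the difference itself. By its title, replicate 7 has no vector partner, and it was used as a separate check. All values are log2 expression levels, each gene is read from the brightest of its probe sets, a difference is vector minus non-transduced, errors are standard errors, and a gene was called at a Benjamini-Hochberg adjusted p under 0.05 in limma over 19775 genes.

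The 15 arrays had medians between 5.06 and 5.23. The 20 genes that best mark SW480 against SW620 cells had array medians of 7.75 to 9.66, and the 20 that mark SW620 had medians of 3.84 to 4.26 on 14 arrays and 5.52 on the array of non-transduced replicate 7, against 7.35 to 9.96 on SW620 arrays. Both sets were chosen on the vector arrays of replicates 3 to 6 of the 2 lines, so only replicates 1, 2 and 7 are a check. There the SW480 genes had medians of 7.75 to 8.85 in replicates 1 and 2 and 9.66 in replicate 7. Of 10 epithelial markers, 8 lay over 6 on average, whereas only COL1A1 of 9 fibroblast markers, PECAM1 of 6 endothelial markers and none of 9 leukocyte markers did. The averaged level of the fibroblast, leukocyte and endothelial markers lay between 4.69 and 5.70 on vector arrays and between 4.76 and 5.50 on non-transduced arrays, and no gene of the 3 lists was called. The difference between the 3′ and 5′ ACTB probe sets, a sign of RNA quality, was 0.34 to 0.75 in replicates 1 and 2, 1.88 to 2.68 in replicates 3 to 6 and 1.99 in replicate 7, and the same difference for GAPDH was 0.05 to 0.49.

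Within replicates 1 and 2, few genes differed between vector-transduced and non-transduced cells, and most of those that did were lower. The fit called 229 genes, 1.16% of all genes tested, of which 63 were higher in vector cells (0.319%) and 166 lower (0.839%). Only 5 of them differed by at least 2-fold: ZBED2 and SH3BGRL were higher, and SYK, ANKRD36B and FTX were lower. At an unadjusted p under 0.05 there were 2466 genes.

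The calls rest on the spread of replicates 3 to 6. The median residual SD was 0.0886 there and 0.142 within replicates 1 and 2, and when replicates 1 and 2 alone set the spread, limma called 0 genes, with 773 at an unadjusted p under 0.05. With the replicate number as a block it called 3 genes, 2 higher and 1 lower, and with the arrays of replicates 3 to 6 averaged in pairs it called 0 (1988 at an unadjusted p under 0.05). The values below are therefore given array by array. The largest rises and falls were taken from called genes with both vectors on the same side of the non-transduced array in both replicates. That order within a replicate was thus fixed by the choice.

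The largest rise was that of ZBED2, a zinc finger transcription factor. In replicate 1 its level was 6.99 with empty vector and 7.35 with the non-target hairpin, against 6.46 in non-transduced cells. In replicate 2 it was 6.64 and 6.65 with the same vectors, against 5.12 in non-transduced cells. All 4 vector arrays lay above both non-transduced arrays, with a difference of 1.12 ± 0.14 (2.17-fold, adjusted p = 0.00255 in limma).

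SH3BGRL, a small protein related to glutaredoxins, had 7.07 with empty vector and 6.83 with the non-target hairpin in replicate 1, against 6.11 in non-transduced cells. In replicate 2 it had 6.82 and 6.81, against 5.60. The vector arrays did not overlap the non-transduced ones, and the difference was 1.03 ± 0.12 (adjusted p = 0.00255 in limma). MARCKS, a membrane-bound substrate of protein kinase C that binds actin, had 8.59 and 8.70 with the vectors in replicate 1, against 7.94 in non-transduced cells, and 8.10 and 7.96 in replicate 2, against 7.11. Its difference of 0.81 ± 0.08 had the smallest adjusted p of the genes named in this average (0.000222 in limma), and all 5 of its probe sets were higher, by 0.53 to 0.90.

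CD24, a glycosylphosphatidylinositol-anchored surface protein, was higher by 0.80 ± 0.15, and VIL1, which encodes villin, the actin-bundling protein of intestinal microvilli, by 0.73 ± 0.11. TLR4, the receptor for bacterial lipopolysaccharide, was higher by 0.76 ± 0.16, and AMIGO2, an adhesion molecule, by 0.71 ± 0.11. The chromatin protein HMGA2 was higher by 0.66 ± 0.12 and the transcription factor SOX4 by 0.76 ± 0.15. The dimmer probe sets of HMGA2 differed by only -0.11 to 0.20. Those of SOX4 differed by -0.06 to 0.96, of VIL1 by -0.10 to 0.73, of TLR4 by 0.22 to 0.81 and of CD24 by 0.45 to 0.84. RNF128, an E3 ubiquitin ligase, CLN8-AS1, the prolyl hydroxylase gene EGLN3, the arrestin-like gene ARRDC3, ADIRF and TSPO2 were higher by 0.61 to 0.81. CLN8-AS1 is named as an antisense transcript, and its other probe set differed by -0.10.

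**Figure D1:**
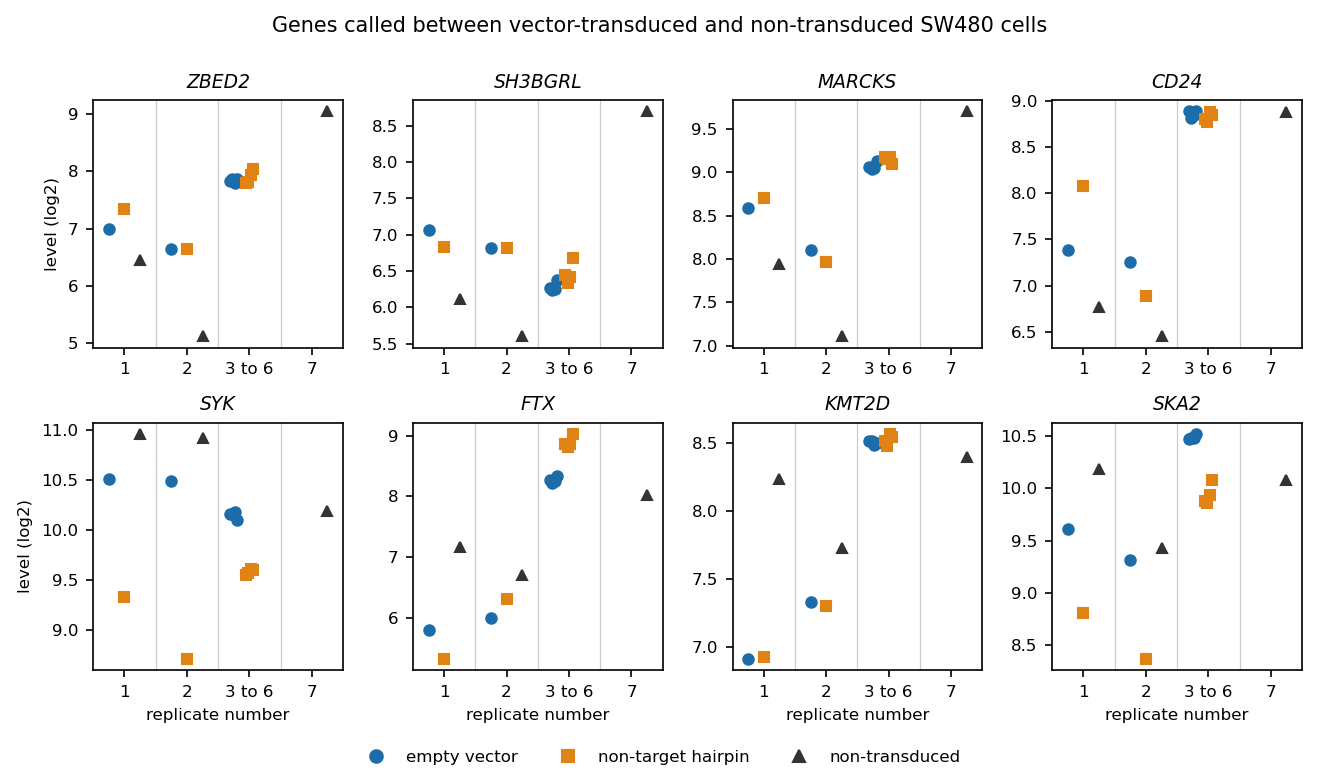
Level (log2) of 8 called genes on the 15 SW480 control arrays, by replicate number, with replicates 3 to 6 side by side. Circles are empty vector, squares non-target hairpin and triangles non-transduced cells. In replicates 1 and 2 the triangles lie below both vector arrays for the 4 upper genes and above them for the 4 lower genes. The genes were chosen by this rule, so that order is not a result. For ZBED2, SH3BGRL and MARCKS the triangle of replicate 7 lies above all vector arrays.

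Among the genes that fell, SYK, a cytoplasmic tyrosine kinase, had the largest change. It had 10.51 with empty vector and 9.33 with the non-target hairpin in replicate 1, against 10.96 in non-transduced cells, and 10.49 and 8.71 in replicate 2, against 10.92. All 4 vector arrays were lower than both non-transduced arrays, with a difference of -1.18 ± 0.20 (2.27-fold lower, adjusted p = 0.0173 in limma), and its 4 probe sets were lower by 0.92 to 1.25.

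The non-target arrays carried most of that difference. SYK was lower by 1.62 with the non-target hairpin (adjusted p = 0.00301 in limma) and by 0.74 with the empty vector (adjusted p = 0.152). In replicates 3 to 6 it lay between 9.55 and 9.61 with the non-target hairpin and between 10.10 and 10.18 with the empty vector. SKA2, a gene of the kinetochore, followed the same order, with differences of -1.11 for the non-target hairpin and -0.46 for the empty vector, and levels of 9.86 to 10.08 and 10.47 to 10.52 with these vectors in replicates 3 to 6. CCNYL1, a cyclin Y-like gene, differed by -1.04 with the non-target hairpin and -0.40 with the empty vector. These 3 genes were picked out after their values were seen, and the difference between the vectors was not tested here.

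Against the non-transduced arrays of replicates 1 and 2, which both kinds of vector share, limma called 88 genes with the empty vector (0.445% of all genes, 28 higher and 60 lower) and 403 with the non-target hairpin (2.04%, 86 higher and 317 lower). With arrays centred on their median the empty vector split was 25 higher and 102 lower, and with renewed quantile normalisation the non-target split was 157 higher and 285 lower. With the replicate block the calls were 0 for the empty vector (1682 at an unadjusted p under 0.05 in limma) and 21 for the non-target hairpin, and with replicates 3 to 6 averaged in pairs they were 0 (1618) and 2. Whether the kinds differ in their number of calls was not tested.

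Several large falls were seen by some of a gene's probe sets only. KMT2D, a histone H3 lysine 4 methyltransferase, had 6.91 and 6.92 with the vectors in replicate 1, against 8.24 in non-transduced cells, and 7.33 and 7.30 in replicate 2, against 7.73. Its difference was -0.87 ± 0.13, and its other probe sets differed by -0.71 to 0.11. FTX, a long noncoding RNA, had 5.79 and 5.32 with the vectors in replicate 1, against 7.17, and 6.00 and 6.30 in replicate 2, against 6.71. Its difference was -1.09 ± 0.23, and its other probe set differed by -0.32.

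The probe set used for NLN, the metallopeptidase neurolysin, was lower by 0.90 ± 0.17, whereas the other 5 differed by -0.12 to 0.26. For HELLS, a chromatin remodelling helicase, the brightest probe set was lower by 0.71 ± 0.16 and the other 4 differed by -0.13 to 0.19. For these 2 genes the fall was thus a result of a single probe set. ANKRD1, a target of YAP, was lower by 0.86 ± 0.14 and has a single probe set. The neuron navigator gene NAV2, the zinc finger genes ZNF595 and ZNF721, the myosin gene MYH7B and the receptor phosphatase gene PTPRO were lower by 0.70 to 0.86, and ANKRD36B by 1.14 ± 0.24. Dimmer probe sets differed by -0.03 for ZNF595, -0.14 for ZNF721 and 0.05 and 0.24 for PTPRO. For NAV2 they differed by -0.67 to 0.33, and for MYH7B by -1.15. When the probe sets of each gene were averaged, limma called 46 genes in all, 22 higher and 24 lower, and 10 of the 30 genes named as the largest rises and falls.

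Replicates 1 and 2 mostly moved different genes. With replicate 2 left out, replicate 1 gave 885 calls (4.48% of genes), 474 higher and 411 lower in vector cells. With replicate 1 left out, replicate 2 gave 1882 calls (9.52%), 343 higher and 1539 lower. Each of these sets rests on a single non-transduced array, assumed to vary like the other arrays. The genes called in the same direction in both numbered 119, which is 13.4% of the calls of replicate 1 and 6.32% of those of replicate 2, and 61 genes were called in opposite directions. Across all genes the differences of the replicates, which share no array, had the same sign in 48.8% and a Pearson correlation of -0.00421, where genes are not independent points.

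**Figure D2:**
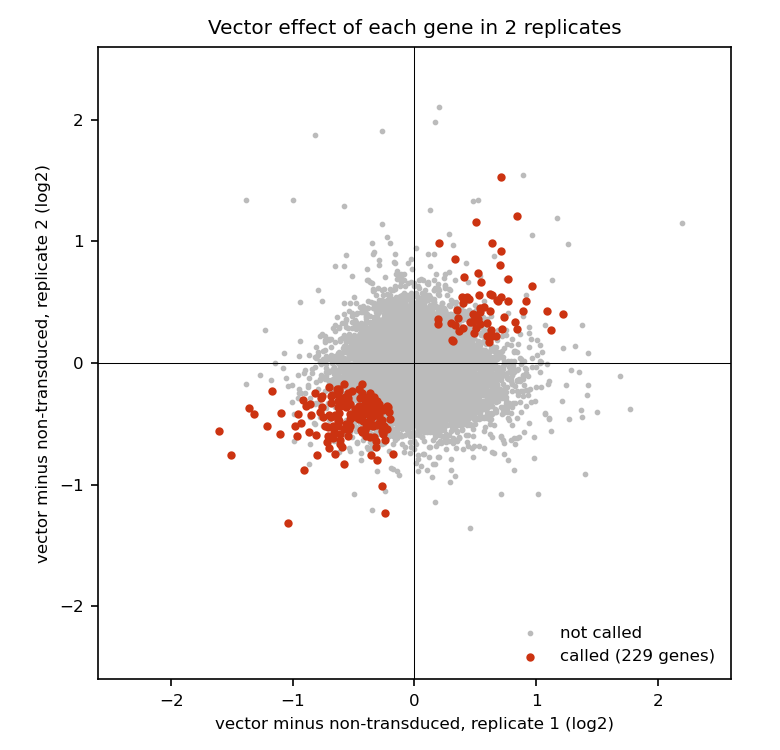
Vector minus non-transduced (log2) of each of 19775 genes in replicate 1 (horizontal) and replicate 2 (vertical), each point a gene. The 229 called genes, in red, lie at the lower left and the upper right. Over all 19775 genes, called ones included, r was -0.00421.

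The fit tested this difference between the replicates directly. It called 286 genes (1.45% of all genes), 217 with a higher vector effect in replicate 1 and 69 with a lower one (291 and 200 with renewed quantile normalisation). These calls too rest on replicates 3 to 6: limma called 0 with those arrays averaged in pairs (2583 at an unadjusted p under 0.05) and 25 without replicate 5. DEFA5, an antimicrobial alpha-defensin of Paneth cells, had 5.32 with empty vector and 5.34 with the non-target hairpin in replicate 1, against 6.72 in non-transduced cells. In replicate 2 it had 6.00 and 6.55 with the vectors, against 4.93. The vector effects of -1.39 and 1.34 differed by -2.73 ± 0.36 (adjusted p = 0.00522 in limma).

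GNG11, a G protein gamma subunit, had 8.09 and 8.02 with the vectors in replicate 1, against 8.88 in non-transduced cells, and 8.52 and 7.82 in replicate 2, against 6.29. MUCL1, the cadherin gene CDH11 and the integrin gene ITGA1 also had the lower vector effect in replicate 1, with differences between the replicates of -2.34, -2.18 and -1.91. The 5 largest differences the other way were in SRPX (2.15), PSD3 (1.82), the actin-bundling gene FSCN1 (1.80), MSLN, which encodes mesothelin (1.67), and EEF1A2, a translation elongation factor (1.61). For FSCN1 the vector arrays of replicate 1 had 7.72 and 7.74, against 6.04 in non-transduced cells, while in replicate 2 they had 6.64 and 6.82, against 6.84.

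The arrays of replicate 1 were the least alike. The SD over genes of the difference between its vector arrays was 0.392, with 569 genes over 2-fold apart. This exceeded the SD between each of them and the non-transduced array of that replicate, 0.345 for the empty vector and 0.299 for the non-target hairpin. The empty vector array of replicate 1 was no nearer to its own non-transduced array than to that of replicate 2. With the latter its SD was 0.336, with 125 genes over 2-fold apart, against 327 with its own. In replicate 2 the vector arrays differed from each other with an SD of 0.18 and from the non-transduced array with 0.234 and 0.24. Among replicates 3 to 6 the SD was 0.13 to 0.215 for arrays of the same vector and 0.181 to 0.236 for arrays of different vectors.

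Interferon-stimulated genes did not pass the test. None of the 41 measured was called (against 1.16% of all genes), and 3 had an unadjusted p under 0.05. Their median difference was 0.047, against 0.00374 over all genes, and the 95% confidence interval of every one of them lay within a 2-fold change either way. Like the calls, these intervals rest on the spread of replicates 3 to 6 and may be too narrow. That of IFITM1 reached 0.98. OAS1, which makes the 2′-5′ oligoadenylates that activate RNase L, had 6.49 and 6.84 with the vectors in replicate 1, against 6.30, and 6.85 and 6.83 in replicate 2, against 6.49. It differed by 0.36 ± 0.10 (adjusted p = 0.0982 in limma). The vector arrays lay above the non-transduced array within each replicate, but the groups overlapped across replicates. ISG15, a ubiquitin-like interferon-induced protein, differed by 0.06, the antiviral GTPase gene MX1 by 0.09, and IFIT1 by -0.13. In the check with replicate 7 the median of the 41 genes was -0.128, against 0.0255 over all genes. There ISG15 differed by 0.63, OAS1 by -0.33 and IFITM1 by -1.83.

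None of 18 genes of nucleic acid sensing was called (against 1.16% of all genes). EIF2AK2, the double-stranded RNA-dependent kinase PKR, differed by -0.37 ± 0.12 and DHX58, a relative of RIG-I, by 0.42 ± 0.16. Of 16 restriction factors 1 fell, where 0.839% of all genes did, and a single call is not read as a result about the list. The gene was APOBEC3C, a cytidine deaminase. It had 9.43 and 9.23 with the vectors in replicate 1, against 9.71, and 8.65 and 8.77 in replicate 2, against 9.12, a difference of -0.39 ± 0.08 (adjusted p = 0.037 in limma). In both replicates the vector arrays lay below their own non-transduced array, although the replicates themselves differed by more.

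Of 12 factors that silence proviruses 1 fell, where 0.839% of all genes did, again a single call from which nothing is read about the list. It was the maintenance DNA methyltransferase gene DNMT1, which differed by -0.30 ± 0.07 (adjusted p = 0.0415 in limma). UHRF1, which brings DNMT1 to newly replicated DNA, differed by -0.30 ± 0.09 (adjusted p = 0.154). None of 12 genes of the RNA interference machinery was called (against 1.16% of all genes), although their median was -0.15. DICER1 differed by -0.42 ± 0.11, TNRC6B, which binds Argonaute, by -0.59 ± 0.15, and XPO5, the exporter of precursor hairpins, by -0.16 ± 0.08. The averages of DICER1 and TNRC6B came mostly from replicate 1, with -0.73 and -1.06, against -0.11 and -0.12 in replicate 2, and both were called in the test of the difference between replicates (adjusted p = 0.0409 and 0.0161 in limma).

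No gene was called among 14 of MHC class I presentation, 21 of the NF-kB and chemokine list, 20 targets of p53 and 8 drug efflux transporters. Of all genes 1.16% were called. The medians of these 4 lists lay between -0.0844 and 0.0284. NFKB2 differed by 0.39 ± 0.20, MDM2, the ubiquitin ligase of p53, by -0.29 ± 0.08, and the transporter gene ABCG2 by 0.33 ± 0.11.

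Genes of hypoxia and glycolysis were the list with most calls. Of 22 measured, 3 rose and none fell in the average, where 0.319% of all genes rose. At an unadjusted p under 0.05 there were 14, against 2466 of all 19775 genes, and the median difference was 0.175, with 0.191 in replicate 1 and 0.127 in replicate 2. In replicate 1, 18 of the 22 differed by more than 0, and in replicate 2 it was 16. EGLN3, which hydroxylates hypoxia-inducible factors, had 6.75 and 6.14 with the vectors in replicate 1, against 5.68, and 6.89 and 6.96 in replicate 2, against 6.42. The difference was 0.64 ± 0.12 (adjusted p = 0.0264 in limma). NDRG1, a stress-responsive gene, was higher by 0.60 ± 0.13 and the glycolytic enzyme gene PGK1 by 0.25 ± 0.05, and for both of them the vector arrays lay above the non-transduced array of the same replicate. In the check with replicate 7 the median of the list was 0.169, against 0.0255 over all genes. There NDRG1 differed by 1.01, but EGLN3 by only 0.17 and PGK1 by only 0.03.

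The other members were smaller or mixed. ALDOC, an aldolase, differed by 0.44 ± 0.14 (adjusted p = 0.15 in limma), and the glucose transporter gene SLC2A1 by 0.23. In the check with replicate 7 ALDOC differed by -0.61. VEGFA, the vascular growth factor, differed by -0.38 and was thus on the other side, and PDK1, a kinase that restrains pyruvate dehydrogenase, differed by 0.62 in replicate 1 and -0.47 in replicate 2.

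Other lists held a single called member at most, where 1.16% of all genes were called. Nothing is read about a list from 1 call. Cathepsin B (CTSB), a lysosomal protease, was higher by 0.43 ± 0.06 (adjusted p = 0.00762 in limma), with 11.35 and 11.09 on the vector arrays of replicate 1, against 10.71, and 11.38 and 11.37 in replicate 2, against 11.02. No other of 20 autophagy and lysosome genes was called. Vimentin (VIM), an intermediate filament protein, was the single call of 18 mesenchymal genes and was higher by 0.49 ± 0.11. BMP4, a ligand of bone morphogenetic protein receptors, was higher by 0.60 ± 0.13, with 0.20 in replicate 1 and 0.99 in replicate 2. Of the genes that fell, KIF23 was the single call of 26 G2/M genes (-0.36 ± 0.07), ASCL2, a stem cell factor of the intestine, that of 17 Wnt targets (-0.42 ± 0.10), and HERPUD1, which acts in endoplasmic reticulum-associated degradation, that of 18 endoplasmic reticulum chaperones and folding genes (-0.64 ± 0.14). DKK1, a secreted inhibitor of Wnt signalling, had one of the larger differences (1.22 ± 0.32) and was not called (adjusted p = 0.0924 in limma). Its vector arrays had 7.47 and 9.11 in replicate 1, against 7.39, and 7.58 and 6.93 in replicate 2, against 5.70.

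The amino acid response, the group of genes induced by ATF4 when amino acids are short or tRNAs uncharged, was lower with vector in replicate 2, while the vectors of replicate 1 lay on either side of 0. The median of its 27 genes was -0.512 in replicate 2, where 26 were below 0, and 0.0544 in replicate 1, where 10 were. In replicate 1 it was 0.33 with the empty vector and -0.16 with the non-target hairpin, and in replicate 2 it was -0.51 and -0.54. In replicate 2 alone 19 of them were called lower (against 9.52% of all genes in either direction), and in replicate 1 alone none was. Averaged over the replicates none was called (against 1.16% of all genes). In the check with replicate 7 against vector arrays of replicates 3 to 6, 21 were called lower with vector and 2 higher, where 17.5% and 15.5% of all genes were, with a median of -0.377.

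ATF4 itself had 10.64 and 10.64 with the vectors in replicate 2, against 11.29 in non-transduced cells, and 11.44 and 11.05 in replicate 1, against 11.03. MTHFD2, a mitochondrial enzyme of folate metabolism named after its values were seen, had 10.32 and 10.12 with the vectors in replicate 2, against 11.11 in non-transduced cells, and 11.40 and 10.09 in replicate 1, against 10.71. The high value in replicate 1 was that of the empty vector array. The test of the difference between replicates called 3 of the 27, ATF4 and the tRNA synthetase genes SARS1 and GARS1, where it called 1.45% of all genes. Endoplasmic reticulum chaperones showed a like split, with a median of -0.293 in replicate 2 and 0.123 in replicate 1, and HSPA5, PDIA3 and PDIA6 were called in the test of the difference. In replicate 1 their median was 0.14 with the empty vector and -0.01 with the non-target hairpin. In the check with replicate 7 it was -0.296, against 0.0255 over all genes.

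**Figure D3:**
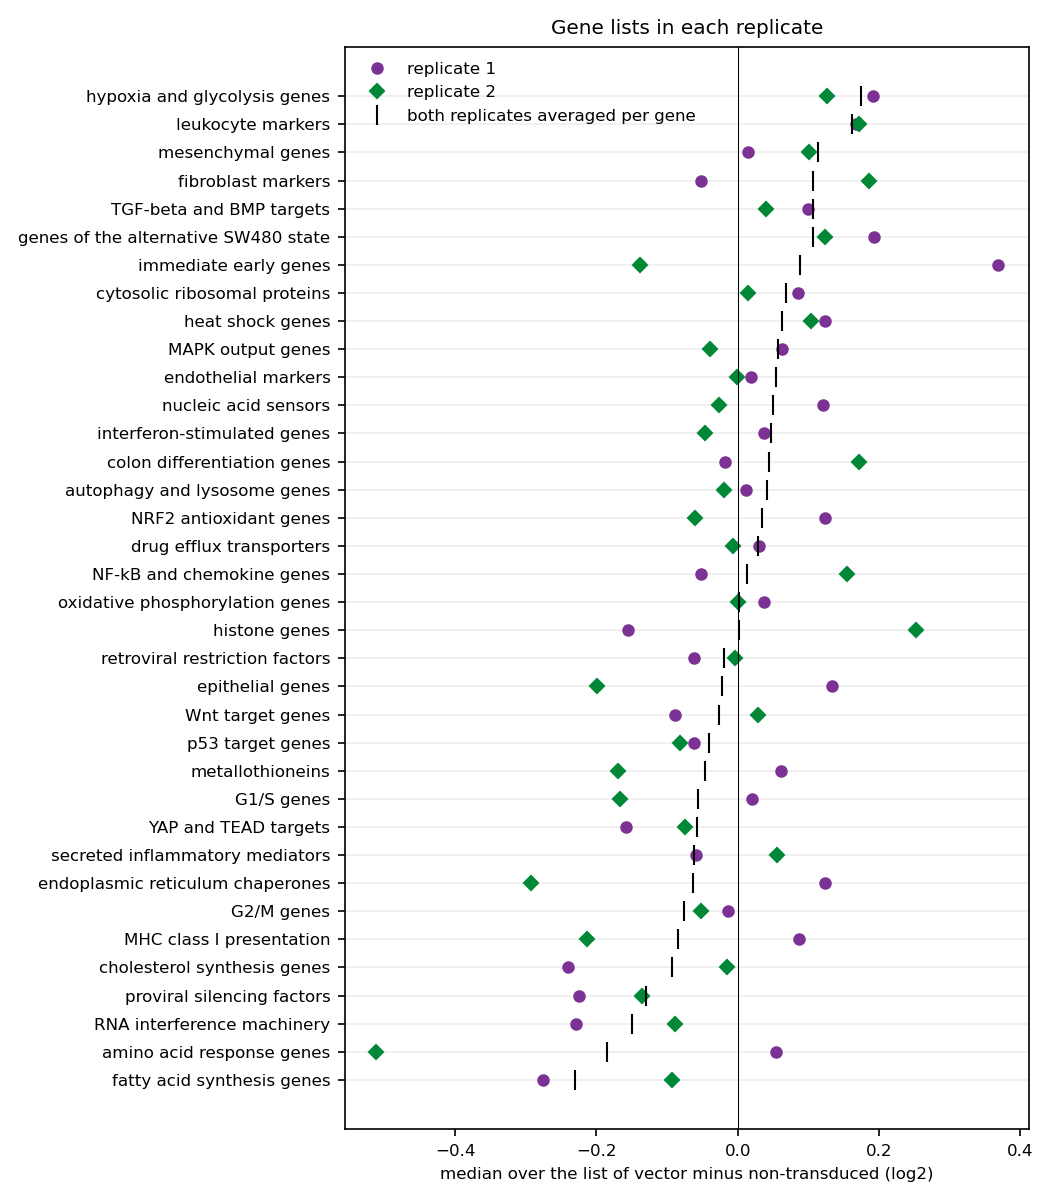
Median over each of 36 gene lists of vector minus non-transduced (log2) in replicate 1 (circles), in replicate 2 (diamonds) and averaged per gene (bars). Hypoxia and glycolysis genes lie above 0 in both replicates, and amino acid response genes lie at 0.0544 in replicate 1 and at -0.512 in replicate 2.

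Cholesterol synthesis genes had no call among 15 (against 1.16% of all genes), and their values differed between the vectors of replicate 1. In the check with replicate 7 their median was -0.627, against 0.0255 over all genes. Relative to the non-transduced array of replicate 1 their median was -0.83 with the empty vector and 0.49 with the non-target hairpin, and in replicate 2 it was 0.01 and -0.06. LSS, which makes lanosterol, had 8.82 with empty vector and 10.29 with the non-target hairpin in replicate 1, against 10.22 in non-transduced cells.

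Transcripts of the mitochondrial genome, a group picked out after its values were seen, were lower with vector in replicates 1 and 2. This genome encodes subunits of the respiratory chain. Of 7 measured genes 5 fell, where 0.839% of all genes did, and all 7 were below 0. Nothing is read from this count, since the values chose the group. COX1, a cytochrome c oxidase subunit, had 12.13 and 12.15 with the vectors in replicate 1, against 12.46 in non-transduced cells, and 12.19 and 12.30 in replicate 2, against 12.94. The 4 vector arrays lay below both non-transduced arrays, and the difference was -0.51 ± 0.06 (adjusted p = 0.00255 in limma). ND6, which is read from the opposite strand to the others, differed by -0.76 ± 0.15, ND4 by -0.38 ± 0.06, ATP6 by -0.37 ± 0.06 and COX2 by -0.32 ± 0.05. ND2 (-0.26 ± 0.07) and COX3 (-0.18 ± 0.12) were not called. None of 22 nuclear genes of oxidative phosphorylation was called (against 1.16% of all genes), and their median was 0.00236.

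The order was the other way round with replicate 7. COX1 lay between 13.16 and 13.28 on the 8 vector arrays of replicates 3 to 6, against 11.31 in non-transduced replicate 7, a difference of 1.91. ND6 had 9.34 to 9.97, against 7.33, and the other 5 differed by 0.75 to 1.91. A fall of mitochondrial transcripts with vector was therefore seen in replicates 1 and 2 and was not seen in the check.

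**Figure D4:**
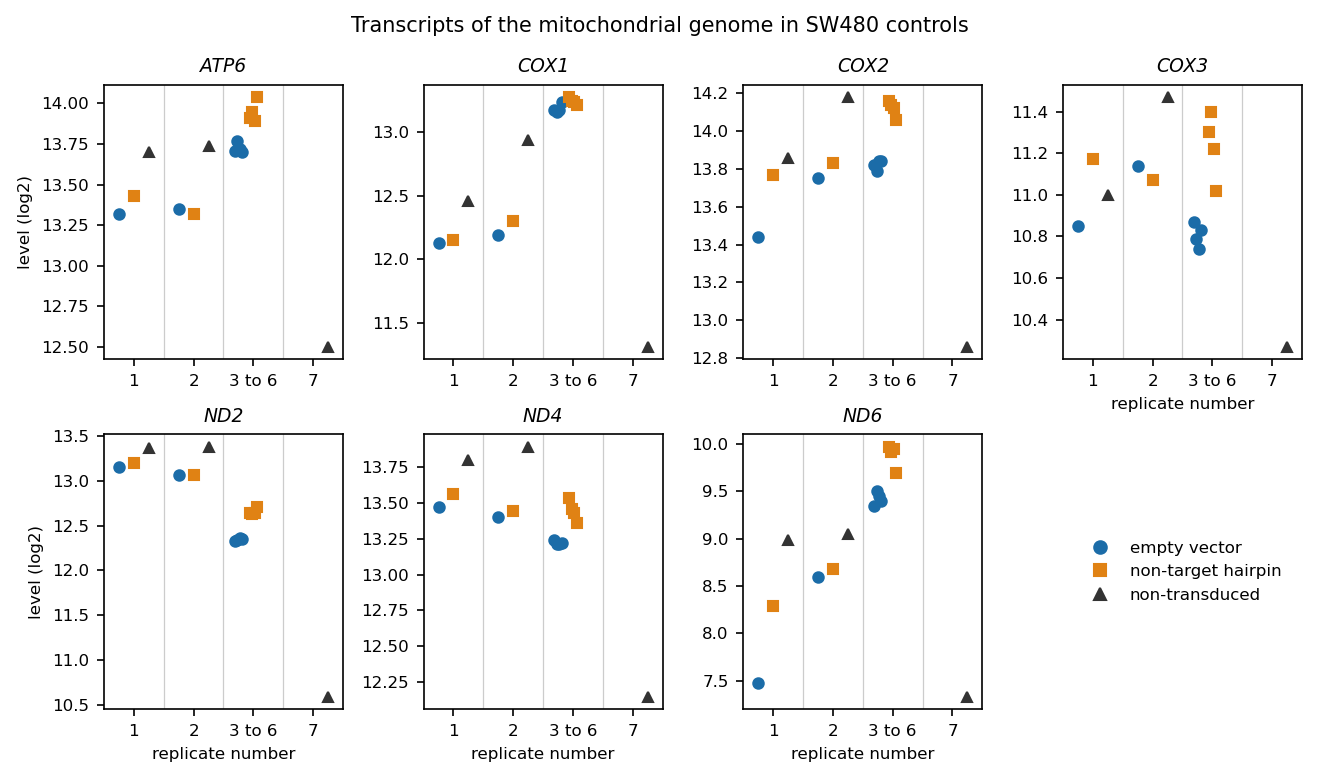
Level (log2) of 7 transcripts of the mitochondrial genome on the 15 SW480 control arrays, by replicate number. Circles are empty vector, squares non-target hairpin and triangles non-transduced cells. In replicates 1 and 2 the triangle lies above the vector arrays except for COX3 in replicate 1, and in replicate 7 it lies below those of replicates 3 to 6 for all 7.

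The genes that fell also held 12 with zinc finger (ZNF) symbols, 7.23% of the 166, where such genes made up 2.54% of all genes, and none rose. This too was noticed after the values were seen. The median gene length was 52.6 kb for the genes that fell, 20.3 kb for those that rose and 24.7 kb for all genes. The genes that fell were also brighter, with a median level of 8.38, against 7.85 for those that rose and 6.21 for all genes. Over all members the shifts were small, with a median difference of -0.0365 for 503 ZNF symbols and -0.0124 for 3340 genes of 100 kb or more.

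Replicate 7 was set against the 8 vector arrays of replicates 3 to 6, the nearest in their values. Its title is written in the style of theirs and another label numbers it 4, but no label says that it was handled with them. The vector and a difference between label series therefore cannot be told apart here, and the single non-transduced array is assumed to vary like the others. The difference was wide: limma called 6513 genes (32.9%), 3062 higher with vector (15.5%) and 3451 lower (17.5%). Of these 6513, 392 differed by at least 2-fold, 39 higher and 353 lower. With arrays centred on their median the split of all calls was 4937 higher and 2558 lower. The SD over genes between replicate 7 and each of the 8 vector arrays was 0.351 to 0.395, and between it and non-transduced replicates 1 and 2 it was 0.91 to 1.01.

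Of the 229 genes called in replicates 1 and 2, 127 had the same sign in the check, 55.5% against 52.9% of all genes. They were 30 of the 63 that rose and 97 of the 166 that fell. ZBED2 lay between 7.80 and 8.05 on the vector arrays of replicates 3 to 6, against 9.05 in replicate 7, and SH3BGRL between 6.24 and 6.68, against 8.70, so both were lower with vector in the check. MARCKS differed by -0.59, CD24 by -0.04 and SYK by -0.33. NDRG1 differed by 1.01 in the check and kept its sign, as did HMGA2, with 0.73, and CTSB, with 0.29.

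The non-transduced array of replicate 7 stood apart by a group of genes that mostly lay near the lower end of the scale on the other 14 arrays. DACH1, a transcription factor, lay between 4.44 and 5.16 on the vector arrays of replicates 3 to 6, against 8.77 in replicate 7, and at 5.04 and 4.02 in non-transduced replicates 1 and 2. RASSF6, a RAS-association domain protein, lay between 3.84 and 4.03, against 7.56, and SSTR1, a somatostatin receptor, between 3.14 and 3.57, against 6.95. DEFA5 had 4.22 to 4.83, against 8.49. The gap junction gene GJA1, the growth factor gene PDGFC and DNAJC12, a co-chaperone, were lower with vector by 3.66 to 3.89. DACH1, RASSF6, SSTR1 and DEFA5 belong to a list of 13 genes that earlier results of these data had marked as an alternative state of SW480 cells, so they are not independent evidence of it. On the replicate 1 arrays of the MAP2K1 and MAPK3 knockdowns, DACH1 had 9.01 and 8.62 and RASSF6 had 9.26 and 9.23. The median of the 13 in the check was -2.14, against 0.0255 over all genes. SERPINE2, EMP1 and AXL were higher with vector there, by 0.81, 0.81 and 0.42. These genes were also low on those knockdown arrays. EMP1, an epithelial membrane protein, had 6.29 and 5.17 on them, against 8.16 in non-transduced replicate 1. The receptor kinase gene AXL had 7.20 and 5.24, against 8.68, and SERPINE2 had 6.12 and 7.5, against 8.23. LY96 and IGFBP1, with 6.22 and 4.46 in replicate 7, lay within the range of the vector arrays of replicates 3 to 6.

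In the other direction TGFBI, an extracellular matrix protein, lay between 10.60 and 10.87 with vector, against 8.72 in replicate 7, a difference of 2.04. PTPRO differed by 2.01 and the calcium-binding protein gene S100A2 by 1.45. TGFBI was also higher with vector in replicate 1, with 10.01 and 10.05, against 8.81, but in replicate 2 it had 9.77 and 10.03, against 9.77. PTPRO was lower with vector in replicates 1 and 2 by 0.74. The markers of SW620 cells had a median of 5.52 in replicate 7, against 3.84 to 4.26 on the other arrays. Their part in the difference was not tested.

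**Figure D5:**
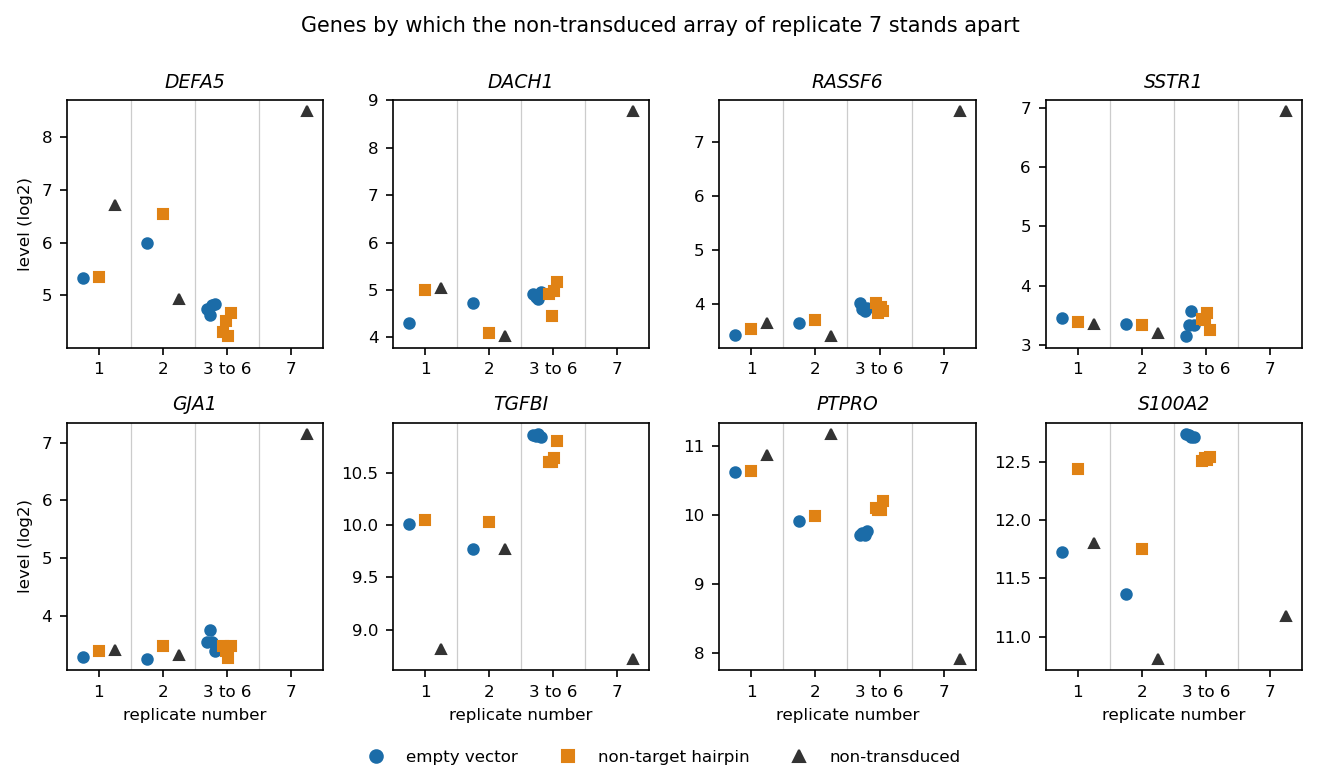
Level (log2) of 8 genes by which the non-transduced array of replicate 7 differs from the vector arrays of replicates 3 to 6, on the 15 SW480 control arrays. Circles are empty vector, squares non-target hairpin and triangles non-transduced cells. For DEFA5, DACH1, RASSF6, SSTR1 and GJA1 the triangle of replicate 7 lies above the 14 other arrays, and for TGFBI and PTPRO it lies below them.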

How the data were processed

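RNA was extracted with Trizol and hybridised to Affymetrix arrays, per the labels' protocols. The deposited values are log2 expression levels, made by the authors with RMA, per the submitters' processing notes, which name no version. Of 54675 probe sets, 41097 carry 1 gene symbol, 1801 several and 11777 none, per the platform annotation. Symbols were updated for 41043 and kept for 54, and the brightest probe set over all arrays of the series stood for each of 19775 genes.

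limma 3.58.1 (R 4.3.3; data.table version 1.17.8) was fitted on 15 arrays with terms for label series (replicate 1, 2, 3 to 6, and 7), vector and kind of vector, with eBayes (trend, robust), and was tested on simulated data. Figures used Python 3.11.15, pandas 2.3.3, numpy 2.4.6 and matplotlib 3.10.9. Tests are two-sided. The number of arrays limits the precision. The labels call the replicates biological, but names of replicates 3 to 6 end in A1, A2, B1 and B2, and whether these are separate cultures is not given, so p-values measure the spread between arrays, which may be technical. Replicate 7 is replicate 4 in another label, and its title was followed.

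The named genes are the 15 largest rises and 15 largest falls among called genes with both vectors on the same side in both replicates (open reading frames and LOC and LINC symbols were passed over), up to 4 genes per list with the smallest p, and the 5 largest differences between replicates each way. Others were named after their values were seen. The members, the 36 lists (575 of 630 genes measured) and the tests were chosen with earlier results of these data known. Same-numbered arrays of replicates 1 and 2 deviated together (correlations over genes of 0.312 to 0.7 between groups), and those of replicates 3 to 6 had correlations of -0.0195 to 0.121, so numbers were not taken as pairs there.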

Additional observations from a re-analysis of the deposited data

Results flagged for a closer look

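For 12 levels, 1 array lay far from the others of its group, in 80 groups of 6 arrays examined, where chance alone gives about 1 in 20 if the arrays of a group are alike. They are not alike here, since each group joins replicates 1 and 2 with the closer replicates 3 to 6, so that rate is no guide. On non-target replicate 2 these were SOX4 (8.92), VIL1 (7.44), EGLN3 (6.96), ADIRF (7.93), SYK (8.71) and CDH11 (6.75). On non-target replicate 1 they were TLR4 (7.20) and PTPRO (10.64), on empty vector replicate 1 PTPRO (10.63) and GNG11 (8.09), and on empty vector replicate 2 FSCN1 (6.64) and ITGA1 (8.10). All 12 were arrays of replicates 1 and 2.

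The vector effect differed between replicates 1 and 2 for 286 genes in limma. The largest differences, replicate 1 minus replicate 2, were 2.15 for SRPX, 1.82 for PSD3, 1.80 for FSCN1, 1.67 for MSLN and 1.61 for EEF1A2, and -2.73 for DEFA5, -2.70 for GNG11, -2.34 for MUCL1, -2.18 for CDH11 and -1.91 for ITGA1.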

How the results depend on the processing

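The 229 calls moved with the estimate of the spread. With the replicate block limma called 3 genes (empty vector 0, with 1682 at an unadjusted p under 0.05, and non-target hairpin 21). It called 0 with the arrays of replicates 1 and 2 only (773 at an unadjusted p under 0.05), with all 18 SW480 arrays of these replicates (355), with the knockdowns taken as transduced (1033), with all arrays of both lines (1157) and with no term for label series (498). With replicates 3 to 6 averaged in pairs it called 0, and 0 for the empty vector (1618), 2 for the non-target hairpin and 0 for the difference between replicates (2583). Averaged probe sets gave 46 calls (22 empty vector, 114 non-target), eBayes without trend and robust 146 (38 empty vector, 153 for the difference between replicates), and a 2-fold minimum 5. Renewed quantile normalisation gave 171 for the empty vector and 491 for the difference between replicates, and leaving out dim genes gave 430 for that difference. Centring arrays on their median gave 4937 higher and 2558 lower calls in the check with replicate 7, where all 12 vector arrays gave 142 calls.

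Leaving out 1 replicate or vector array gave 17 to 1882 calls (without replicate 4, and without replicate 1), 7 to 1633 for the empty vector, 83 to 2330 for the non-target hairpin and 25 to 4093 for the difference between replicates. For the 229 calls these were 885 without replicate 2, 22, 21 and 54 without replicates 3, 5 and 6, 1849 and 419 without empty vector replicates 1 and 2, and 497 and 80 without non-target replicates 1 and 2. Of the 30 largest rises and falls, none changed sign in these.

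Signs turned in 3 alternatives. With no term for label series the difference was -0.26 for SH3BGRL, -0.05 for VIL1, 0.37 for FTX, 0.64 for ANKRD1, 0.73 for ND6, 0.06 for PTPRO, 0.08 for CCNYL1, 0.10 for HELLS, 0.10 for ZNF721, 0.09 for DNMT1, 0.34 for KIF23 and -0.55 for BMP4. With the knockdowns as transduced it was -0.04 for ZBED2. With replicate 7 placed with replicates 3 to 6, an alternative chosen after the data were seen, limma called 266 genes, 80 of them among the 229, and the difference was -0.31 for SH3BGRL, -0.13 for VIL1, -0.03 for ARRDC3, 0.47 for ND6, 0.36 for PTPRO and -0.28 for BMP4. The cause was not tested.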

Other observations

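Immediate early genes, which respond within minutes to growth factors and stress, had a median of 0.37 in replicate 1 and -0.14 in replicate 2. None of 17 was called in the average (against 1.16% of all genes). FOS came nearest, with 9.89 and 9.50 with the vectors in replicate 1, against 9.08, and 9.12 and 9.56 in replicate 2, against 8.90 (0.53 ± 0.13, adjusted p = 0.0575 in limma). Epithelial genes had a median of -0.20 in replicate 2 and 0.13 in replicate 1. In replicate 2, E-cadherin (CDH1) had 7.00 and 6.95 with the vectors, against 7.69 in non-transduced cells. In replicate 1 CDH1 had 7.60 with empty vector and 4.92 with the non-target hairpin, against 6.00 in non-transduced cells.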
